A study of Mus musculus with 15 samples.

Results

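The 10 imprinted growth regulator genes described here are Igf2, H19, Dlk1, Meg3, Peg3, Mest, Grb10, Ndn, Snrpn and Nnat. They were taken by symbol from a table of 23244 entries measured in 15 libraries. All 10 were found, and all 10 passed the filter on low values. For 8 genes the entry carried that symbol alone. The Meg3 entry also named Mir1906-2 and Mir770, and the Snrpn entry also named Snurf, so these 2 values are those of the shared entries. The libraries are poly(A) RNA sequencing of optic tissue grown from mouse embryonic stem cells as floating aggregates (the SFEBq method). The study followed how retinal epithelium takes a neural retina or a pigment epithelium course, and the comparisons here ask how the imprinted genes behaved on both courses.

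All 5 groups came from the one line EB5 Rx::GFP+/-, in which GFP reports the eye field gene Rx, and each group held 3 libraries. The stem cells were kept in 2i medium with LIF, and Matrigel was added to every aggregate at 4%. The Day 10 Rx::GFP+ group was GFP-positive epithelium dissected at Day 10. The +Wnt explants, taken at Day 12 or Day 15, were such tissue cultured in retinal maturation medium with the GSK3 inhibitor CHIR99201, at 3 uM for the first 24 hours and 1 uM afterwards. The +Fgf explants, taken at the same days, received 5 ng per ml human recombinant bFgf with 10% FBS in the same medium. Serum was given to the +Fgf groups only, so bFgf and serum cannot be told apart. No library came from explants cultured to Day 12 or Day 15 without either stimulation. In changes from Day 10, stimulation and time in culture therefore cannot be told apart. A difference between +Fgf and +Wnt cannot be assigned to either one. Explants contain mixed cells, and a lower value in bulk RNA can mean fewer cells of a type or less RNA per cell, which cannot be told apart here. The parental allele behind a transcript and DNA methylation were not measured.

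Imprinted genes are transcribed mainly from the maternal or the paternal copy, according to DNA methylation set in the germ line at control regions. Many of them act on embryonic growth, with several paternally expressed genes, such as the growth factor Igf2, promoting growth and several maternally expressed ones, such as the adaptor Grb10, restraining it. Imprinted genes lie in clusters, so that Igf2 and the noncoding RNA H19 share enhancers, and Dlk1 and the noncoding RNA Meg3 share a control region.

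Positions are from GENCODE on GRCm38 (mm10). On chromosome 7 lie 5 members. Igf2 is at chr7:142650766-142666816 and H19 at chr7:142575529-142578143, both on the minus strand. The others there are Peg3 at chr7:6703892-6730431 on the minus strand, Ndn at chr7:62346569-62350262 on the plus strand and Snrpn at chr7:59982495-60140219 on the minus strand. Dlk1 at chr12:109452823-109463336 and Meg3 at chr12:109541001-109571726 both lie on the plus strand. Mest at chr6:30723547-30748465 and Nnat at chr2:157560078-157562522 are on the plus strand and Grb10 at chr11:11930508-12038683 is on the minus strand. Nnat lies inside the gene Blcap, and exons of Mest overlap those of Copg2 on the opposite strand. H19 and Meg3 are annotated as long noncoding RNAs and the other 8 as protein coding.

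The 250 bases upstream of a start site are shown for Grb10, Mest and Nnat, because Grb10 and Mest moved together and opposite to Nnat between the stimulations and because CpG pairs are the bases on which imprints are written. The sequences are from RefSeq (GRCm38.p6), run 5′ to 3′ on the strand of the gene, and have each CG in capitals. Where a gene had several starts, the one with most CG pairs is shown, and which start these cells used was not measured. Whether a shown window lies in an imprint control region was not examined. The windows are chr11:12037421-12037670 for Grb10, chr6:30737800-30738049 for Mest and chr2:157559828-157560077 for Nnat.
Grb10: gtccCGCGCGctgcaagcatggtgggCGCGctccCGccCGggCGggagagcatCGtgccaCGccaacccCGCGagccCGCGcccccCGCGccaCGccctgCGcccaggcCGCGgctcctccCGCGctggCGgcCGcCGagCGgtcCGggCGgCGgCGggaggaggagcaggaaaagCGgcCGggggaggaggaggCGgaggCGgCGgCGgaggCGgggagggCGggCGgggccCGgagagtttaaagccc
Mest: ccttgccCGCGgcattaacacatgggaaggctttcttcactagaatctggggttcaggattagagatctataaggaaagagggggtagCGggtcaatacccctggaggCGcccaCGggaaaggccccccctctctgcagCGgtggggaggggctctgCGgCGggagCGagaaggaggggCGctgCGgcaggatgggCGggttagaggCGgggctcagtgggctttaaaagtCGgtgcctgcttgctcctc
Nnat: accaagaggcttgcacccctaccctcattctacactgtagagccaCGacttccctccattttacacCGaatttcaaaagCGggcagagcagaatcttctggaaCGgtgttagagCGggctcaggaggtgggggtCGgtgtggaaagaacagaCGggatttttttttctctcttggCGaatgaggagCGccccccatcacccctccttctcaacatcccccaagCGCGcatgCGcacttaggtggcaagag
The Grb10 window held 40 CG pairs, a number that 1.31% of all 32851 windows reached, and the other Grb10 window held 8 (43.0% of windows had at least as many). The Mest window held 14 (29.4% of windows had at least as many) and the Nnat window 12 (33.5%), against a median of 6 over all windows. RefSeq gave 19 windows for 9 of the members, with a median of 8.0 CG pairs, and H19 had no entry. The shown windows were picked for their CG pairs, so these shares are a description. The letters CTTTGAA and CTTTGAT are core motifs of the TCF and LEF factors that act in Wnt signaling, which share their first 6 letters and were searched on both strands. They were in 0 of the 19 windows and in 7.48% of all windows.

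Values are the deposited normalized read counts (CPM), a scale on which a library sums to 936418 to 1075448. The total per library was 12556998 to 16175450 reads, and the fewest reads behind a member in any library were 39, for Grb10 in Day 12 +Wnt. Differences were tested with limma on log2(CPM + 0.3) in 13845 genes, and a gene was called at an adjusted p (Benjamini-Hochberg) under 0.05. The markers of the labelled tissues were present, with 8 neural retina markers summing to 1834 to 1878 CPM in Day 12 +Fgf and 2377 to 2587 in Day 15 +Fgf, against 559 to 601 and 391 to 447 in the +Wnt groups of those days. The 8 pigment epithelium markers summed to 5250 to 6779 CPM in Day 15 +Wnt and to 328 to 1729 in the other groups, but Rpe65, the visual cycle isomerase of mature pigment epithelium, was under 1 CPM in all 5 groups and at 0 in 4. Markers of other cell types moved with the groups. The summed level of 10 early neuron markers was 152 to 229 CPM at Day 10, 342 to 375 and 656 to 918 at Day 12 with +Fgf and +Wnt, and 2124 to 2298 and 1494 to 1860 CPM at Day 15. The 12 mesenchyme markers summed to 589 to 691 CPM in Day 12 +Fgf and 616 to 725 in Day 15 +Wnt, and to 188 to 257 elsewhere. Choroid plexus markers reached 899 to 1396 CPM in Day 15 +Wnt, against at most 182 in the other groups. The summed endothelium and blood markers split by stimulation, at 99.7 to 170.3 CPM in Day 12 +Fgf against 5.6 to 9.33 in Day 12 +Wnt, and 216.5 to 266.7 against 21.1 to 27.9 CPM at Day 15. Of the 5 such genes found, 4 were under 1 CPM in each +Fgf group, so these sums do not stand for the set. At Day 12, neural crest markers were 39.2 to 46.6 CPM with +Fgf against 16.0 to 17.5 with +Wnt, and skeletal muscle markers 14.8 to 19.2 against 1.52 to 2.09. Of the 6 skeletal muscle genes, 5 were under 1 CPM in both Day 12 groups. Of the 6 neural crest genes, 2 were under 1 CPM there with +Fgf and 3 with +Wnt. Whether the sums reflect such cells, and the part of such cells in the results, was not tested.

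Between the stimulations at Day 12, 5 members were higher in Day 12 +Fgf than in Day 12 +Wnt and 3 were lower, in a comparison that called 26.3% of all tested genes higher and 25.2% lower. H19, Mest, Grb10, Igf2 and Ndn were the higher ones, and Nnat, Snrpn and Dlk1 the lower ones. At Day 15 the counts were 4 higher in +Fgf (H19, Peg3, Mest and Grb10) and 3 lower (Dlk1, Meg3 and Nnat), against a background of 38% and 30.6%. From Day 10 to Day 12, 6 members rose and 4 fell with +Fgf (background 27.9% and 27.8%), and 2 rose and 6 fell with +Wnt (background 30.6% and 29.6%). From Day 12 to Day 15, 4 rose and 5 fell with +Fgf (background 27.2% and 29.9%), and 6 rose and 4 fell with +Wnt (background 32.5% and 35.5%). Over the whole span from Day 10 to Day 15 it was 4 and 6 with +Fgf (background 36.2% and 36.4%) and 4 and 5 with +Wnt (background 39.6% and 40.2%). The change from Day 12 to Day 15 differed between the stimulations for 7 members, with the +Fgf change above the +Wnt change in 3 (Peg3, Snrpn and Nnat) and below it in 4 (Igf2, Dlk1, Meg3 and Grb10), against 27% and 20.9% of tested genes. The comparisons share the Day 10, Day 12 or Day 15 libraries, so these counts are not independent of each other. The members did not move as a block. Their median log2 difference was 0.12 between the stimulations at Day 12 and 0.02 at Day 15, against -0.00 and 0.05 over all tested genes.

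**Figure D1:**
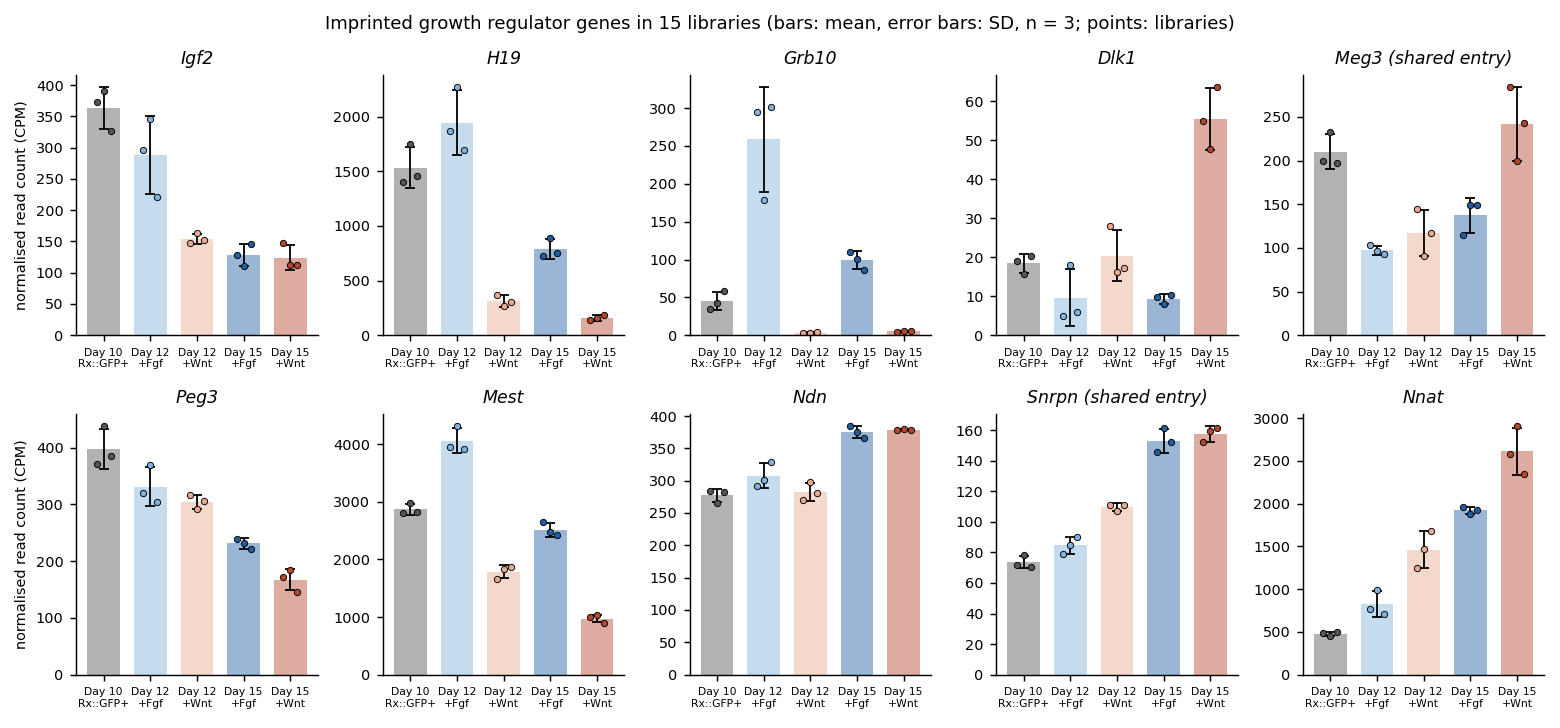
Normalized read counts (CPM, linear axis from 0, each gene on its own scale) of the 10 genes in the 5 groups, with bars for the mean, error bars for the SD and points for the 3 libraries of a group. Grb10 lies between 179 and 302 CPM in the Day 12 +Fgf libraries and under 7 CPM in all 6 +Wnt libraries, while Nnat lies between 454 and 499.9 CPM at Day 10 and between 2350.2 and 2904 CPM in Day 15 +Wnt.

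Igf2, the insulin-like growth factor of fetal tissues, fell on both courses, and reached the lower level sooner with +Wnt. It measured 373, 391 and 326 CPM in Day 10 Rx::GFP+, 297, 345 and 221 in Day 12 +Fgf, 148, 163 and 152 in Day 12 +Wnt, 128.5, 110.4 and 146 in Day 15 +Fgf, and 147, 113 and 112 in Day 15 +Wnt. The Day 12 +Wnt libraries were all below the Day 12 +Fgf libraries, while at Day 15 the groups overlapped. Relative to Day 10, Igf2 was 2.35-fold lower in Day 12 +Wnt (log2 change -1.23, SE 0.14, adjusted p = 1.2e-06). The fall by Day 15 was 2.84-fold with +Fgf (log2 change -1.50, SE 0.14, adjusted p = 4.21e-08) and 2.94-fold with +Wnt (log2 change -1.56, SE 0.14, adjusted p = 1.62e-08). Day 12 +Fgf was lower than Day 10 by a smaller amount (log2 change -0.36, SE 0.14, adjusted p = 0.0371), a call lost without replicate 1 (-0.34, adjusted p = 0.0893) or 2 (-0.30, adjusted p = 0.124) of Day 10 Rx::GFP+ and without replicate 1 (-0.39, adjusted p = 0.0516) or 3 (-0.18, adjusted p = 0.24) of Day 12 +Fgf. At Day 12 Igf2 was 1.83-fold higher in +Fgf than in +Wnt (log2 change 0.87, SE 0.14, adjusted p = 5.2e-05), and at Day 15 no difference was detected (log2 change 0.05, 95% confidence interval -0.24 to 0.34, adjusted p = 0.746). The further fall from Day 12 to Day 15 with +Wnt (log2 change -0.33, SE 0.14, adjusted p = 0.0454) was lost under 13 of the 25 alternatives tried. Among them were leaving out any Day 12 +Wnt library, replicate 2 or 3 of Day 15 +Wnt, replicate 1 or 2 of Day 10 Rx::GFP+ or replicate 1 of Day 12 +Fgf, where the change was -0.36 to -0.26 and the adjusted p 0.0507 to 0.158.

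H19, the maternally expressed noncoding RNA next to Igf2, kept a high level with +Fgf at Day 12 and dropped steeply with +Wnt. It measured 1399.5, 1747 and 1459 CPM in Day 10 Rx::GFP+, 1867, 2272 and 1694 in Day 12 +Fgf, 371, 267.5 and 306 in Day 12 +Wnt, 728, 894 and 749 in Day 15 +Fgf, and 138, 155 and 186 in Day 15 +Wnt. All 6 +Wnt libraries were below all 9 others, and the Day 12 +Fgf libraries overlapped those of Day 10. H19 fell 4.89-fold from Day 10 to Day 12 with +Wnt (log2 change -2.29, SE 0.13, adjusted p = 9.23e-10) and 9.63-fold by Day 15 (log2 change -3.27, SE 0.13, adjusted p = 1.09e-12). With +Fgf it fell from Day 12 to Day 15 (log2 change -1.29, SE 0.13, adjusted p = 4.26e-07). The difference between the stimulations was 6.18-fold at Day 12 (log2 change 2.63, SE 0.13, adjusted p = 8.36e-11) and 4.96-fold at Day 15 (log2 change 2.31, SE 0.13, adjusted p = 1.5e-10). A slight rise in Day 12 +Fgf over Day 10 (log2 change 0.34, SE 0.13, adjusted p = 0.0402) was lost without replicate 1 (0.27, adjusted p = 0.137) or 3 (0.30, adjusted p = 0.11) of Day 10 Rx::GFP+ and without replicate 1 (0.36, adjusted p = 0.0619) or 2 (0.22, adjusted p = 0.192) of Day 12 +Fgf. With the RNA integrity number of each library as a covariate it was 0.06 (adjusted p = 0.808). These numbers did not overlap between the groups compared. That fit takes its slope from the spread of RNA integrity within groups, so the adjusted value rests on extending this slope between groups. The rise cannot be assigned to RNA quality or to group.

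H19 and Igf2 parted by stimulation, and the ratio of their reads within a library, chosen after the values were seen and given without a test, shows how far. There were 3.75, 4.47 and 4.48 H19 reads per Igf2 read at Day 10. The ratio was 6.29, 6.58 and 7.66 in Day 12 +Fgf and 5.67, 8.1 and 5.13 in Day 15 +Fgf. In +Wnt it was 2.51, 1.64 and 2.01 at Day 12 and 0.935, 1.37 and 1.67 at Day 15. No +Wnt library reached the lowest Day 10 ratio, and no +Fgf library was as low as the highest Day 10 ratio.

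**Figure D2:**
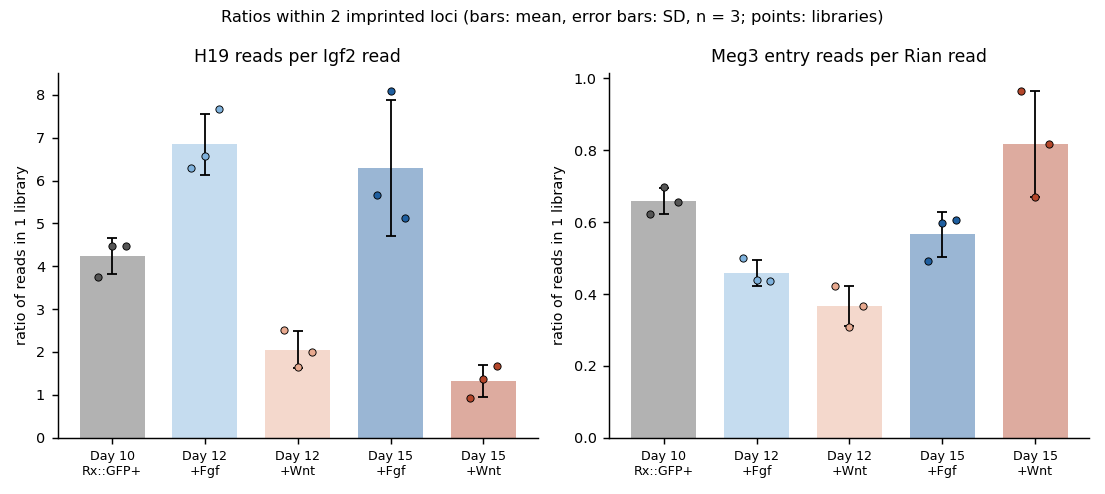
Ratio of H19 reads to Igf2 reads (left) and of Meg3 entry reads to Rian reads (right) within each library, on linear axes from 0, with bars for the mean, error bars for the SD and points for the 3 libraries of a group. The H19 to Igf2 ratio lies between 5.13 and 8.1 in the 6 +Fgf libraries and between 0.935 and 2.51 in the 6 +Wnt libraries.

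Farther along the chromosome from Igf2 and H19 lie Cdkn1c, a cyclin-dependent kinase inhibitor, Phlda2, a pleckstrin domain protein known from placental growth, and the antisense RNA Kcnq1ot1. Cdkn1c was 95.6 ± 2.66 CPM (SD, n = 3) at Day 10, 168 ± 34.1 in Day 12 +Fgf, 75.9 ± 5.98 in Day 12 +Wnt, 48.2 ± 12.2 in Day 15 +Fgf and 65.2 ± 11.8 in Day 15 +Wnt. Like H19, it was higher in +Fgf than in +Wnt at Day 12 (log2 change 1.13, SE 0.17, adjusted p = 2.62e-05), but unlike H19 it was lower in +Fgf at Day 15 (log2 change -0.45, SE 0.17, adjusted p = 0.0236). Phlda2 was at 6.47 ± 1.98 CPM at Day 10 and at means of at most 1.35 CPM in the other groups. Kcnq1ot1 had group means between 8.16 and 12.1 CPM and was higher in +Fgf than in +Wnt at Day 15 (log2 change 0.55, SE 0.12, adjusted p = 0.000814). The entry of Ins2, the insulin gene beside Igf2, was too low to be tested.

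Of the proteins that bind Igf2, the receptor Igf2r, which is itself imprinted and clears Igf2 from the cell surface, rose 2.05-fold in Day 12 +Fgf (log2 change 1.03, SE 0.10, adjusted p = 3.34e-07). It measured 56.8 ± 3.58 CPM at Day 10, 117 ± 17.9 in Day 12 +Fgf, 53.8 ± 6.94 in Day 12 +Wnt, 53.8 ± 5.24 in Day 15 +Fgf and 57.7 ± 1.64 in Day 15 +Wnt, so that only the Day 12 +Fgf mean stood above the rest. The signaling receptors Igf1r and Insr were named after their values were seen. Both were higher in +Fgf than in +Wnt at Day 15, Igf1r at 122 ± 6.65 against 85.1 ± 4.13 CPM (log2 change 0.52, SE 0.07, adjusted p = 5.19e-06) and Insr at 49.0 ± 3.74 against 31.1 ± 2.49 CPM (log2 change 0.65, SE 0.09, adjusted p = 5.83e-06). Among the secreted binding proteins of the insulin-like growth factors, Igfbp5 and Igfbp2 went the other way. Igfbp5 was 332 ± 4.08 CPM in Day 15 +Fgf and 2291 ± 141 in Day 15 +Wnt (log2 change -2.78, SE 0.09, adjusted p = 3.14e-13), after 474 ± 52.6 at Day 10. Igfbp2 rose from 221 ± 18.2 CPM at Day 10 to 1160.2 ± 77.7 in Day 15 +Wnt (log2 change 2.39, SE 0.15, adjusted p = 1.38e-10) and to 593 ± 67.6 in Day 15 +Fgf (log2 change 1.42, SE 0.15, adjusted p = 1.72e-07). Other binding proteins did not share this direction. Igfbp4 was higher in +Fgf than in +Wnt at Day 15 (log2 change 1.14, SE 0.07, adjusted p = 3.68e-10). Igfbp3 was higher in +Fgf at Day 12 (log2 change 2.39, SE 0.14, adjusted p = 5.15e-10). Igfbp7 was higher in +Fgf at Day 12 (log2 change 1.25, SE 0.21, adjusted p = 8.61e-05) and lower at Day 15 (log2 change -2.51, SE 0.21, adjusted p = 1.44e-08). The RNA-binding proteins Igf2bp2 and Igf2bp3, which bind Igf2 mRNA, also fell from Day 10 to Day 15 on both courses. With +Wnt, more of their fall than of that of Igf2 came after Day 12. From Day 12 to Day 15 +Wnt, Igf2bp2 fell from a mean of 236 CPM (log2 change -1.37, SE 0.08, adjusted p = 1.58e-10). Igf2bp3 fell from 270 CPM over those days (log2 change -1.74, SE 0.05, adjusted p = 2.24e-13). Igf2bp2 went from 401 ± 23.7 CPM at Day 10 to 152 ± 4.36 in Day 15 +Fgf and 91.3 ± 11.8 in Day 15 +Wnt (log2 change -2.14, SE 0.08, adjusted p = 2.5e-13), and Igf2bp3 from 306 ± 23.8 to 147 ± 3.43 and 80.6 ± 1.51 CPM (log2 change -1.92, SE 0.05, adjusted p = 9.27e-15).

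The list of 24 genes of the insulin-like growth factor axis, Igf2r included, had 23 tested genes. At Day 12, 11 were higher in +Fgf than in +Wnt and 8 lower (background 26.3% and 25.2%), while the median log2 difference of the list was -0.12, on the other side of 0 from the larger count. At Day 15 it was 8 and 8 (background 38% and 30.6%), with a median of -0.10. From Day 10 to Day 15 with +Wnt, 13 rose and 8 fell (background 39.6% and 40.2%), with a median change of 1.21 against -0.00 over all tested genes, and with +Fgf 10 rose and 7 fell (background 36.2% and 36.4%), with a median of -0.08. Among its called genes reaching 10 CPM in either group, those that rose most with +Wnt were the protease Htra1, which cleaves binding proteins (log2 change 4.30, SE 0.21, adjusted p = 7.92e-12), Igfbp2 and Igfbp5, and those that fell most were the insulin receptor substrate Irs4 (log2 change -2.92, SE 0.31, adjusted p = 1.77e-07), Igf2bp2 and Igf2bp3.

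Grb10, the adaptor that binds the insulin and insulin-like growth factor receptors and damps their signal, changed more than any other member, and in opposite directions by stimulation. It measured 34.8, 42.7 and 57.8 CPM in Day 10 Rx::GFP+, 295, 178.5 and 302 in Day 12 +Fgf, 2.45, 3.2 and 4.44 in Day 12 +Wnt, 110.2, 100.1 and 86.3 in Day 15 +Fgf, and 4.9, 6.19 and 5.68 in Day 15 +Wnt. The 5 groups did not overlap. The 6 +Wnt libraries held 39 to 83 Grb10 reads each, and the Day 12 +Fgf libraries 2802 to 4729. Grb10 rose 5.67-fold from Day 10 to Day 12 with +Fgf (log2 change 2.50, SE 0.21, adjusted p = 8.02e-08) and fell 12.4-fold with +Wnt (log2 change -3.64, SE 0.21, adjusted p = 1.03e-09). The stimulations differed 70.5-fold at Day 12 (log2 change 6.14, SE 0.21, adjusted p = 1.26e-12) and 16.8-fold at Day 15 (log2 change 4.07, SE 0.21, adjusted p = 4.67e-11). From Day 12 to Day 15 it fell 2.55-fold with +Fgf (log2 change -1.35, SE 0.21, adjusted p = 4.66e-05). The small rise with +Wnt over those days (log2 change 0.71, SE 0.21, adjusted p = 0.00707) was lost under quantile normalization (0.08, adjusted p = 0.732) and in the edgeR count test (0.78, adjusted p = 0.0884). The promoter of Grb10 printed above is the window with the most CG pairs among those of the members.

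The genes on either side of Grb10 did not share its course. Ddc, the aromatic amino acid decarboxylase, was 7.49 ± 1.65 CPM in Day 12 +Fgf and 4.8 ± 0.092 in Day 12 +Wnt (log2 change 0.59, SE 0.20, adjusted p = 0.0201), and lower in +Fgf at Day 15 (log2 change -0.62, SE 0.20, adjusted p = 0.0115). Cobl, an actin nucleator, was lower in +Fgf than in +Wnt at Day 12 (log2 change -1.21, SE 0.15, adjusted p = 3.66e-06) and at Day 15 (log2 change -1.09, SE 0.15, adjusted p = 6.15e-06), with group means between 1.4 and 9.35 CPM.

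Mest, a paternally expressed gene whose protein has an alpha/beta hydrolase fold, was higher with +Fgf and lower with +Wnt at both days. It measured 2810.3, 2985 and 2825 CPM in Day 10 Rx::GFP+, 3950.2, 4315 and 3921.5 in Day 12 +Fgf, 1654, 1842 and 1875 in Day 12 +Wnt, 2647, 2483 and 2418.5 in Day 15 +Fgf, and 996, 1026 and 896 in Day 15 +Wnt. None of the 5 groups overlapped another. Mest rose 1.41-fold from Day 10 to Day 12 with +Fgf (log2 change 0.50, SE 0.06, adjusted p = 4.69e-06) and fell 1.61-fold with +Wnt (log2 change -0.68, SE 0.06, adjusted p = 1.06e-07). It then fell over the next days on both courses, 1.61-fold with +Fgf (log2 change -0.69, SE 0.06, adjusted p = 9.06e-08) and 1.84-fold with +Wnt (log2 change -0.88, SE 0.06, adjusted p = 2.53e-09). The stimulations differed 2.27-fold at Day 12 (log2 change 1.18, SE 0.06, adjusted p = 1.19e-10) and 2.59-fold at Day 15 (log2 change 1.37, SE 0.06, adjusted p = 7.34e-12). Day 15 +Fgf was slightly lower than Day 10 (log2 change -0.19, SE 0.06, adjusted p = 0.0104), a call lost under quantile normalization (-0.05, adjusted p = 0.447). Copg2, a coat protein gene whose exons overlap Mest on the other strand, had the opposite pattern from Mest at Day 12, 41.8 ± 1.41 CPM in +Fgf and 57.8 ± 2.42 in +Wnt (log2 change -0.47, SE 0.06, adjusted p = 7e-06), and the same direction at Day 15 (log2 change 0.41, SE 0.06, adjusted p = 1.54e-05). Whether the counting used strand is not given in the sources used here, so reads from the overlap cannot be assigned.

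Peg3, a paternally expressed zinc finger protein, fell at each step on both courses. It measured 371, 438 and 384 CPM in Day 10 Rx::GFP+, 320.5, 369 and 304 in Day 12 +Fgf, 317, 292.5 and 305 in Day 12 +Wnt, 239.7, 232 and 222 in Day 15 +Fgf, and 172.5, 184 and 146 in Day 15 +Wnt. The Day 12 groups overlapped each other, all 6 Day 12 libraries were below all 3 of Day 10, and all 6 Day 15 libraries were below all of Day 12. The fall to Day 12 was small with +Fgf (log2 change -0.26, SE 0.08, adjusted p = 0.0122) and was lost without Day 10 Rx::GFP+ replicate 2 (-0.19, adjusted p = 0.0733) or Day 12 +Fgf replicate 3 (-0.20, adjusted p = 0.0664). With +Wnt it was called as well (log2 change -0.38, SE 0.08, adjusted p = 0.00083). Relative to Day 10 Peg3 was 1.71-fold lower in Day 15 +Fgf (log2 change -0.78, SE 0.08, adjusted p = 2.42e-07) and 2.38-fold lower in Day 15 +Wnt (log2 change -1.25, SE 0.08, adjusted p = 3.58e-10). The stimulations did not differ detectably at Day 12 (log2 change 0.12, 95% confidence interval -0.06 to 0.29, adjusted p = 0.258) and differed 1.39-fold at Day 15 (log2 change 0.47, SE 0.08, adjusted p = 8.17e-05). Usp29, a deubiquitinase gene that starts beside Peg3 and is also expressed from the paternal copy, rose over the same span, from 3.61 ± 0.207 CPM at Day 10 to 7.62 ± 1.89 in Day 15 +Fgf (log2 change 0.99, SE 0.16, adjusted p = 3.89e-05) and 14.2 ± 1.72 in Day 15 +Wnt (log2 change 1.88, SE 0.16, adjusted p = 1.24e-08). Zim1, the next zinc finger gene, stayed under 2.1 CPM in every library.

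Dlk1, a transmembrane protein related to Notch ligands and expressed from the paternal copy, was highest in Day 15 +Wnt. It measured 19.1, 15.7 and 20.4 CPM in Day 10 Rx::GFP+, 5.01, 18.0 and 5.88 in Day 12 +Fgf, 27.9, 16.1 and 17.3 in Day 12 +Wnt, 9.81, 7.9 and 10.4 in Day 15 +Fgf, and 55.0, 47.7 and 63.6 in Day 15 +Wnt. Every Day 15 +Wnt library was above all 12 others. In Day 12 +Fgf, replicate 2 stood at 18.0 CPM and the other libraries at 5.01 and 5.88. Dlk1 rose 2.75-fold from Day 12 to Day 15 with +Wnt (log2 change 1.46, SE 0.33, adjusted p = 0.000789) to 2.98-fold above Day 10 (log2 change 1.57, SE 0.33, adjusted p = 0.000292). It was 5.76-fold lower in Day 15 +Fgf than in Day 15 +Wnt (log2 change -2.53, SE 0.33, adjusted p = 3.04e-06). It was lower in Day 12 +Fgf than at Day 10 (log2 change -1.14, SE 0.33, adjusted p = 0.00714), though the libraries overlapped. Without replicate 2 of Day 12 +Fgf the change was -1.70 (adjusted p = 3.85e-06), and without replicate 1 it was -0.81. On leaving out 1 library in turn its adjusted p reached 0.0495. Day 12 +Fgf was also below Day 12 +Wnt (log2 change -1.26, SE 0.33, adjusted p = 0.00401), again with overlapping libraries. That difference was -1.81 without replicate 2 of Day 12 +Fgf (adjusted p = 1.35e-06) and -0.92 without replicate 1. On leaving out 1 library in turn its adjusted p reached 0.0304. No change from Day 12 to Day 15 with +Fgf was detected with all libraries (log2 change 0.19, 95% confidence interval -0.50 to 0.88, adjusted p = 0.646), while without replicate 2 it was 0.75 (adjusted p = 0.00479). Day 15 +Fgf was below Day 10 (log2 change -0.95, SE 0.33, adjusted p = 0.0148), a call lost without Day 15 +Fgf replicate 2 (-0.84, adjusted p = 0.0537).

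The markers of undifferentiated cells also varied between libraries. The 7 pluripotency markers summed to 11.7, 19.9 and 4.34 CPM in the 3 Day 12 +Fgf libraries, to 12.4, 62.4 and 61.9 CPM in Day 15 +Wnt, where Dlk1 replicate values were 55.0, 47.7 and 63.6, and to 1.03, 20.1 and 1.84 CPM in Day 15 +Fgf. At Day 10 the sums were 47.4, 63.1 and 58.9 CPM, and in Day 12 +Wnt 63.9, 37.2 and 23.3 CPM. Dlk1 in both of these groups was below every Day 15 +Wnt library. The library with the highest sum had the highest Dlk1 of its group in Day 12 +Fgf and Day 12 +Wnt. It had the lowest Dlk1 of its group in Day 10 Rx::GFP+, Day 15 +Fgf and Day 15 +Wnt. The part of such cells in the Dlk1 values was not tested.

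Meg3, the maternally expressed noncoding RNA beside Dlk1, was measured as an entry shared with Mir1906-2 and Mir770. It measured 199, 233 and 197 CPM in Day 10 Rx::GFP+, 103, 96.0 and 92.6 in Day 12 +Fgf, 144, 91.0 and 117 in Day 12 +Wnt, 114, 149 and 149 in Day 15 +Fgf, and 284, 199.5 and 243 in Day 15 +Wnt. The libraries of both Day 12 groups and of Day 15 +Fgf were all below Day 10, and those of Day 15 +Wnt overlapped Day 10. The entry fell 2.15-fold from Day 10 to Day 12 with +Fgf (log2 change -1.10, SE 0.15, adjusted p = 8.64e-06) and 1.81-fold with +Wnt (log2 change -0.86, SE 0.15, adjusted p = 8.88e-05). It rose 2.07-fold from Day 12 to Day 15 with +Wnt (log2 change 1.05, SE 0.15, adjusted p = 6.72e-06) and 1.4-fold with +Fgf (log2 change 0.49, SE 0.15, adjusted p = 0.00881). At Day 12 the stimulations did not differ detectably (log2 change -0.25, 95% confidence interval -0.55 to 0.06, adjusted p = 0.169), though without Day 12 +Wnt replicate 2 the difference was -0.42 (adjusted p = 0.0214). At Day 15 the entry was 1.76-fold lower with +Fgf (log2 change -0.81, SE 0.15, adjusted p = 0.000101), a call lost with RNA integrity as a covariate (-0.50, adjusted p = 0.136). Day 15 +Wnt against Day 10 gave no call (log2 change 0.19, 95% confidence interval -0.11 to 0.50, adjusted p = 0.225) but was called under quantile normalization (0.48, adjusted p = 0.00618).

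Of the other genes of the Dlk1 and Meg3 cluster, the noncoding RNA Rian, which hosts small nucleolar RNAs and is expressed from the maternal copy like Meg3, had a narrower range of group means than the Meg3 entry. Rian measured 318 ± 16.6 CPM at Day 10, 213 ± 6.5 in Day 12 +Fgf, 317 ± 23.0 in Day 12 +Wnt, 242 ± 8.73 in Day 15 +Fgf and 296 ± 1.94 in Day 15 +Wnt. The ratio of Meg3 entry reads to Rian reads, again chosen after the values were seen and not tested, was 0.623 to 0.697 at Day 10, 0.309 to 0.423 in Day 12 +Wnt and 0.67 to 0.966 in Day 15 +Wnt. The ranges of Day 12 +Fgf (0.435 to 0.5) and Day 15 +Fgf (0.493 to 0.606) overlapped. Mirg, measured in an entry shared with 3 microRNA genes, had group means of 4.56 to 7.51 CPM. Dio3, the deiodinase that inactivates thyroid hormone and the far end of the cluster, had a course unlike that of Dlk1. It measured 22.7 ± 3.57 CPM at Day 10, 22.0 ± 4.48 in Day 12 +Fgf, 21.5 ± 1.86 in Day 15 +Fgf, and 0.62 ± 0.127 and 0.34 ± 0.038 in Day 12 and Day 15 +Wnt. The difference between the stimulations at Day 15 (log2 change 5.09, SE 0.17, adjusted p = 1.7e-13) is on the log2(CPM + 0.3) scale, which understates it at such low values. Rtl1 was too low to be tested.

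Ndn, or necdin, a paternally expressed protein of the MAGE family known from postmitotic neurons, was the steadiest member. It measured 284, 265 and 282 CPM in Day 10 Rx::GFP+, 292, 302 and 329.6 in Day 12 +Fgf, 269, 297.5 and 280.4 in Day 12 +Wnt, 384, 375.5 and 365.5 in Day 15 +Fgf, and 378, 380.5 and 379 in Day 15 +Wnt. The Day 15 groups overlapped each other and lay above all Day 10 and Day 12 libraries, while those of the +Wnt course overlapped between Day 10 and Day 12. Ndn rose 1.35-fold from Day 10 to Day 15 with +Fgf (log2 change 0.44, SE 0.05, adjusted p = 4.04e-07) and 1.37-fold with +Wnt (log2 change 0.45, SE 0.05, adjusted p = 1.7e-07). No difference between the stimulations was detected at Day 15 (log2 change -0.02, 95% confidence interval -0.12 to 0.09, adjusted p = 0.777), although quantile normalization called one (-0.15, adjusted p = 0.0185). The difference called at Day 12 (log2 change 0.12, SE 0.05, adjusted p = 0.0417) was lost under 11 alternatives, among them leaving out replicate 2 or 3 of Day 12 +Fgf, replicate 1 or 3 of Day 12 +Wnt, replicate 2 of Day 15 +Fgf or replicate 3 of Day 15 +Wnt (0.07 to 0.14, adjusted p 0.0504 to 0.226). The small rise to Day 12 +Fgf (log2 change 0.15, SE 0.05, adjusted p = 0.0145) was lost without Day 10 Rx::GFP+ replicate 2 (0.12, adjusted p = 0.0668) or Day 12 +Fgf replicate 3 (0.10, adjusted p = 0.0932). The rise from Day 12 to Day 15 with +Fgf (log2 change 0.29, SE 0.05, adjusted p = 8.41e-05) was 0.10 with RNA integrity as a covariate (adjusted p = 0.416).

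Snrpn, which encodes the SmN spliceosome protein enriched in brain, was measured in an entry shared with Snurf, whose reading frame lies on the same transcript. It measured 72.1, 78.4 and 70.6 CPM in Day 10 Rx::GFP+, 79.0, 85.0 and 90.2 in Day 12 +Fgf, 111, 107 and 111 in Day 12 +Wnt, 146, 161 and 153 in Day 15 +Fgf, and 152, 159.5 and 162 in Day 15 +Wnt. The groups rose in steps, with Day 12 +Wnt above Day 12 +Fgf, and the Day 15 groups overlapped. The entry rose 2.08-fold from Day 10 to Day 15 with +Fgf (log2 change 1.05, SE 0.06, adjusted p = 4.71e-11) and 2.14-fold with +Wnt (log2 change 1.10, SE 0.06, adjusted p = 1.42e-11). The first step with +Fgf was small (log2 change 0.20, SE 0.06, adjusted p = 0.00596) and was lost with RNA integrity as a covariate (0.21, adjusted p = 0.0577). At Day 12 it was 1.3-fold lower with +Fgf than with +Wnt (log2 change -0.37, SE 0.06, adjusted p = 2.69e-05), and at Day 15 no difference was detected (log2 change -0.04, 95% confidence interval -0.16 to 0.08, adjusted p = 0.511), though quantile normalization called one (-0.19, adjusted p = 0.00591).

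Nnat, or neuronatin, a paternally expressed small membrane protein of the endoplasmic reticulum known from the developing brain, rose at every step on both courses and stood higher with +Wnt at both days. It measured 484, 454 and 499.9 CPM in Day 10 Rx::GFP+, 764, 994 and 709 in Day 12 +Fgf, 1243, 1462 and 1673 in Day 12 +Wnt, 1959, 1877 and 1926 in Day 15 +Fgf, and 2576, 2904 and 2350.2 in Day 15 +Wnt. The 5 groups did not overlap. Nnat rose 1.7-fold from Day 10 to Day 12 with +Fgf (log2 change 0.76, SE 0.11, adjusted p = 2.53e-05) and 3.02-fold with +Wnt (log2 change 1.60, SE 0.11, adjusted p = 6.29e-09). By Day 15 it was 4.01-fold above Day 10 with +Fgf (log2 change 2.00, SE 0.11, adjusted p = 9.21e-11) and 5.43-fold with +Wnt (log2 change 2.44, SE 0.11, adjusted p = 4.35e-12). It was 1.78-fold lower in +Fgf than in +Wnt at Day 12 (log2 change -0.83, SE 0.11, adjusted p = 9.37e-06) and 1.35-fold lower at Day 15 (log2 change -0.44, SE 0.11, adjusted p = 0.00232), where RNA integrity as a covariate gave -0.47 (adjusted p = 0.0815). Blcap, the gene in which Nnat lies, changed less, from 51.3 ± 2.18 CPM at Day 10 to 51.8 ± 2.84 in Day 15 +Fgf and 70.9 ± 1.59 in Day 15 +Wnt (log2 change 0.47, SE 0.05, adjusted p = 4.83e-07), with no call for Day 15 +Fgf against Day 10 (log2 change 0.01, 95% confidence interval -0.10 to 0.13, adjusted p = 0.814). The sum of the early neuron markers rose with the days as well. At Day 12 it was higher in +Wnt (656 to 918 CPM) than in +Fgf (342 to 375 CPM), the direction of Nnat and Snrpn, and at Day 15 it was higher in +Fgf (2124 to 2298 CPM) than in +Wnt (1494 to 1860 CPM), the reverse of Nnat. The part of neurons in the rise of Ndn, Snrpn and Nnat was not tested.

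The neighbours of Ndn and Snrpn on chromosome 7 had several courses. Magel2, a MAGE family gene beside Ndn, fell from 16.7 ± 3.23 CPM at Day 10 to 8.47 ± 0.839 and 8.45 ± 0.51 at Day 12 and was back at 18.5 ± 3.2 and 17.2 ± 1.77 at Day 15, with +Fgf and +Wnt in that order. Peg12, also expressed from the paternal copy, was lower with +Wnt, at 65.4 ± 1.7 CPM at Day 12 and 27.4 ± 4.13 at Day 15, against 113 ± 12.8 and 94.3 ± 3.17 with +Fgf (log2 change 1.78, SE 0.09, adjusted p = 2.18e-11 at Day 15). Mkrn3, a ring finger gene, was higher with +Fgf at Day 15 (log2 change 0.42, SE 0.08, adjusted p = 0.000343). Ube3a, a ubiquitin ligase expressed from the maternal copy in neurons, had group means between 88.6 and 104.9 CPM, and Atp10a between 2.37 and 7.11 CPM.

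**Figure D3:**
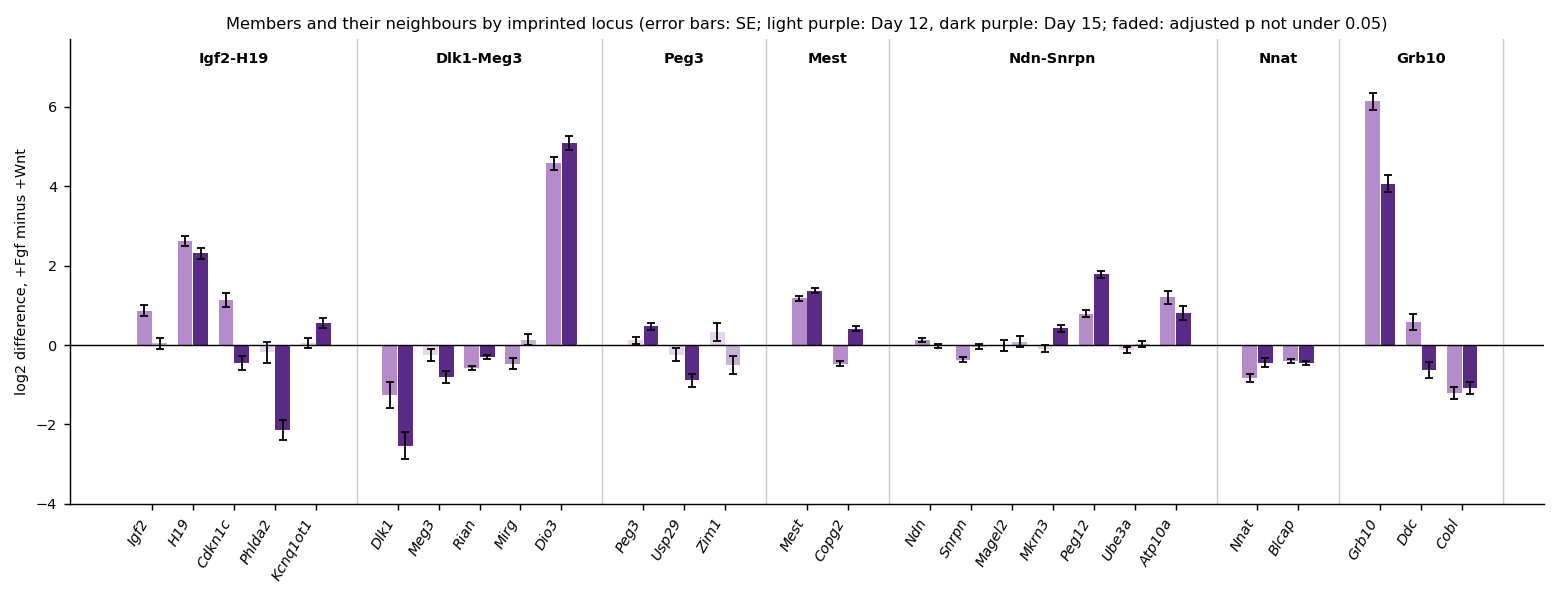
Difference between the stimulations (log2 CPM + 0.3, +Fgf minus +Wnt) at Day 12 and Day 15 for the members and their neighbours, grouped by imprinted locus, with error bars for the SE and faded bars where the adjusted p was not under 0.05. Within the Dlk1 and Meg3 cluster Dlk1 is at -2.53 and Dio3 at 5.09 at Day 15, and beside Grb10 at 6.14 on Day 12 stand Ddc at 0.59 and Cobl at -1.21.

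Compared per length of annotated exons, in mean CPM per kilobase, the order of the members changed with the course. At Day 10 Mest led with 728, then H19 with 624 and Nnat with 262, and Grb10 (4.96) and Dlk1 (3.25) were last. In Day 15 +Wnt Nnat led with 1427, followed by Mest with 247, Ndn with 103 and Snrpn with 73.1. H19, at 64.9, came after these there, and Dlk1, at 9.8, stood above Grb10 at 0.615. In Day 12 +Fgf the leaders were those of Day 10, Mest at 1029.7, H19 at 790.5 and Nnat at 449.8, with Grb10 at 28.5 above Peg3 at 24.9. The exon lengths cover all annotated transcripts and not those these cells used, so levels of genes with unused exons are understated. Together the 10 entries held 0.577 to 0.618% of all reads at Day 10, 0.755 to 0.877% in Day 12 +Fgf, 0.434 to 0.485% in Day 12 +Wnt, 0.624 to 0.652% in Day 15 +Fgf and 0.482 to 0.553% in Day 15 +Wnt.

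**Figure D4:**
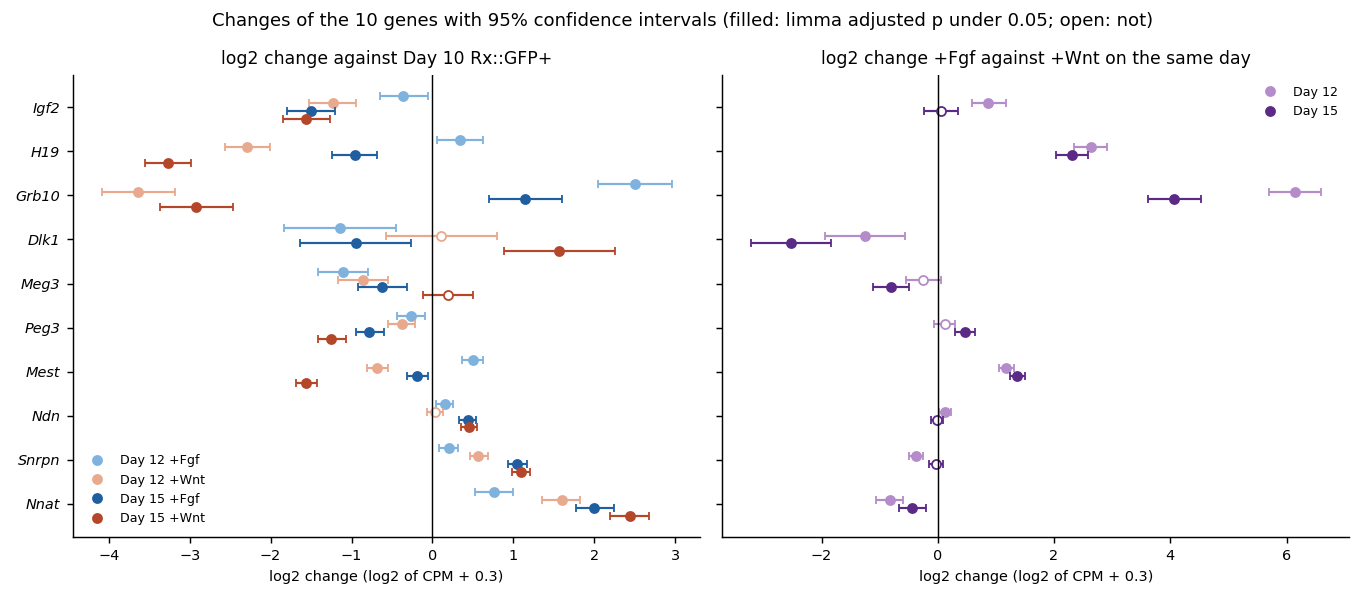
Log2 changes (log2 of CPM + 0.3) of the 10 genes against Day 10 (left) and between the stimulations on the same day (right), with points for the limma estimate, bars for its 95% confidence interval and open points where the adjusted p was not under 0.05. Grb10 stands at 6.14 and 4.07 between the stimulations, and at Day 15 the intervals of Igf2, Ndn and Snrpn include 0.

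The members fell into groups of like pattern, given here as Pearson correlations of log2 values over the 15 libraries, which lie in 5 groups and are no independent points. H19 and Mest had r = 0.96, H19 and Grb10 0.86, and Mest and Grb10 0.84. Snrpn and Nnat had 0.95 and Ndn and Snrpn 0.85, and Igf2 went against both Snrpn (-0.94) and Nnat (-0.92). Igf2 and H19 had 0.77, and the neighbours Dlk1 and Meg3 0.69. The genes most like each member, among tested genes with a mean of at least 10 CPM, were Farp1 and Cs for Igf2 (both 0.96), Wfdc1 (0.989) and Cdon (0.984) for H19, Epha2 (0.986) and Sept8 (0.983) for Grb10, and Odc1 (0.989) and Cdh11 (0.987) for Mest. For Peg3 they were Peg3as (0.993), an antisense transcript at the same locus whose reads cannot be told apart from those of Peg3 without strand, and Cbx2 (0.983). They were Lhx5 (0.96) and Capn6 (0.944) for Dlk1, Slc6a6 and Mt1 for Meg3 (both 0.94), Ier3 (0.982) and Ppp1r9b (0.972) for Ndn, Hdac9 (0.987) and Mapt (0.986) for Snrpn, and Scn3a (0.994) and Mdga1 (0.988) for Nnat. Wfdc1, the gene most like H19, went from a mean of 82.6 CPM at Day 10 to 92.2 in Day 12 +Fgf and 2.02 in Day 15 +Wnt. Lhx5, the transcription factor gene most like Dlk1, had a mean of 36.9 CPM in Day 15 +Wnt and of at most 8.2 in the other groups.

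Among other imprinted genes, Plagl1, a zinc finger transcription factor expressed from the paternal copy, lay above Day 10 with +Fgf and below it with +Wnt. Grb10 did so as well, at a lower level. The log2 difference of Grb10 between the stimulations shrank from 6.14 at Day 12 to 4.07 at Day 15, and that of Plagl1 did not. Plagl1 measured 567 ± 80.8 CPM at Day 10, 1541 ± 126 in Day 12 +Fgf, 135 ± 12.4 in Day 12 +Wnt, 1164 ± 90.5 in Day 15 +Fgf and 99.8 ± 10.6 in Day 15 +Wnt. The stimulations differed 11.4-fold at Day 12 (log2 change 3.51, SE 0.10, adjusted p = 1.62e-13) and 11.6-fold at Day 15 (log2 change 3.54, SE 0.10, adjusted p = 3.23e-14). Its r with Grb10 over the 15 libraries was 0.97, and with H19 and Mest 0.89 each, a set of values picked after they were seen. Slc38a4, an amino acid transporter expressed from the paternal copy, fell 2.84-fold in Day 12 +Wnt (log2 change -1.51, SE 0.07, adjusted p = 1.49e-10). Dcn, the proteoglycan decorin, which is imprinted in placenta, rose from 2.38 ± 0.378 CPM at Day 10 to 111 ± 12.5 in Day 15 +Wnt (log2 change 5.38, SE 0.41, adjusted p = 2.39e-09), the group in which the 12 mesenchyme markers, Dcn not among them, summed to 616 to 725 CPM. Their part in this was not tested.

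Of 24 other genes listed as paternally expressed, 19 were tested. At Day 12, 8 were higher in +Fgf than in +Wnt and 3 lower (background 26.3% and 25.2%), with a median log2 difference of 0.05. At Day 15 it was 8 and 8 (background 38% and 30.6%), with a median of 0.11 against 0.05 over all tested genes. Of 29 other genes listed as maternally expressed, Dcn among them, 22 were tested. For neither list was the allele used in this tissue measured. Against the same backgrounds, at Day 12, 5 were higher in +Fgf and 7 lower, with a median of -0.10, and at Day 15, 5 were higher and 12 lower, with a median of -0.40. Besides Dcn, the called genes of this list reaching 10 CPM in either group that stood farthest below +Wnt in Day 15 +Fgf were Osbpl5, an oxysterol-binding protein (log2 change -1.35, SE 0.11, adjusted p = 1.69e-08), and Gatm, an enzyme of creatine synthesis (log2 change -1.29, SE 0.13, adjusted p = 1.11e-07).

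Of 16 genes that act on DNA methylation or at imprint control regions, among them Tet1, Tet2 and Tet3, which oxidise methylated bases and so promote their loss, 15 were tested. At Day 15, 11 were higher in +Fgf than in +Wnt and 3 lower (background 38% and 30.6%), the Tet genes among the higher ones, with a median log2 difference of 0.36 against 0.05 over all tested genes, and at Day 12, 6 were higher and 1 lower (background 26.3% and 25.2%). From Day 10 to Day 15 with +Wnt, 4 rose and 9 fell (background 39.6% and 40.2%), with a median change of -0.69 against -0.00. Uhrf1, which brings the maintenance methyltransferase to newly copied DNA, fell from 272 ± 13.6 to 84.8 ± 7.67 CPM (log2 change -1.68, SE 0.06, adjusted p = 1.16e-13), and the helicase Hells from 186 ± 20.0 to 61.5 ± 5.23 CPM (log2 change -1.59, SE 0.07, adjusted p = 5.17e-12). The de novo methyltransferases parted. Dnmt3b fell from 76.4 ± 4.73 to 23.5 ± 2.86 CPM (log2 change -1.69, SE 0.09, adjusted p = 3.9e-11) and Dnmt3a rose from 106 ± 5.19 to 295 ± 11.5 CPM (log2 change 1.48, SE 0.05, adjusted p = 6.8e-14).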

How the data were processed

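The authors sequenced poly(A) RNA from 15 explant samples (TruSeq Stranded mRNA), mapped reads to mm10 with TopHat2 2.0.8b, estimated counts per gene with Cuffdiff of Cufflinks 2.1.1 and normalized them with edgeR 3.2.4. The deposited values, called CPM and treated here as a normalized signal, sum to 936418 to 1075448 per library, and 1 read is worth 0.0620 to 0.0764 CPM. Whole reads were recovered for 100.0% of non-zero values, within 0.01 read. The entries in the table of all samples had the values of the per-sample tables, within a relative difference of 7.8e-09.

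The planned test for CPM values was kept for this unit. Groups and replicate numbers came from the sample titles. limma 3.58.1 (R 4.3.3, trend, 5 group means, all 15 libraries, two-sided) was fitted on log2(CPM + 0.3) for 13845 genes with at least 1 CPM in at least 3 libraries, with Benjamini-Hochberg adjustment and a threshold of 0.05. Fold changes are on that scale, and the fits were tested on simulated data. Nothing says that the 3 libraries of a group came from separate stem cell cultures, so p-values measure the spread between these samples. Alternatives were pseudocounts of 0.05 and 1 CPM, no filter or one of 10 CPM, median-of-ratios scaling, quantile normalization, RNA integrity number as a covariate, a replicate block, only the groups compared, the quasi-likelihood count test of edgeR 4.0.16 on recovered reads, and leaving out each library. The members and lists were chosen with earlier results of these data known. All members were named. List genes given with values were picked from those called with a log2 change of at least 1 and at least 10 CPM in the higher group. The choice was among at most 3 in each direction per list and comparison, and not all such genes are given. Igf1r, Insr and the neighbours of a member were given outside this rule. Zfp264 was not analysed here, and Snurf counts with Snrpn. Positions are from GENCODE and promoter windows from RefSeq.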

Additional observations from a re-analysis of the deposited data

Results flagged for a closer look

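The change from Day 12 to Day 15 was compared between the stimulations by the interaction term of the limma fit, which is the log2 change with +Fgf minus that with +Wnt. It was past the threshold for 7 of the 10 members, against 47.9% of all tested genes. For Igf2 it was -0.82 (adjusted p = 0.00238), since Igf2 fell by 1.15 with +Fgf and by 0.33 with +Wnt, where it was already low at Day 12. For Grb10 it was -2.07 (adjusted p = 3.26e-05), the fall with +Fgf standing against low values at both days with +Wnt. For Dlk1 the term was -1.27 (adjusted p = 0.0316) and for the Meg3 entry -0.57 (adjusted p = 0.0319), both having risen more with +Wnt. Without Day 12 +Fgf replicate 2, the Dlk1 term was -0.71 (adjusted p = 0.0382). For Peg3 the term was 0.36 (adjusted p = 0.0191), the fall being larger with +Wnt. For the Snrpn entry it was 0.33 (adjusted p = 0.00229) and for Nnat 0.39 (adjusted p = 0.0489), the rise being larger with +Fgf in both. The terms of H19 (-0.32, adjusted p = 0.179), Mest (0.19, adjusted p = 0.0851) and Ndn (-0.14, adjusted p = 0.104) did not pass. The term of Grb10 was lost under no alternative, and those of Igf2 (-0.73, adjusted p = 0.106) and Snrpn (0.32, adjusted p = 0.0801) only with RNA integrity as a covariate. With that covariate the other terms were lost too, at 0.28 for Peg3 (adjusted p = 0.306), -0.91 for Dlk1 (adjusted p = 0.406), -0.21 for Meg3 (adjusted p = 0.683) and 0.35 for Nnat (adjusted p = 0.346). RNA integrity went largely with group, so these losses cannot be assigned to RNA quality or to group. With no filter on low values Dlk1 (adjusted p = 0.0517), Meg3 (adjusted p = 0.0516) and Nnat (adjusted p = 0.0787) did not pass. Leaving out libraries also changed these calls. The Peg3 term was not past the threshold without Day 12 +Fgf replicate 3 (0.30, adjusted p = 0.054) or Day 15 +Wnt replicate 3 (0.26, adjusted p = 0.0557). The Dlk1 term was lost without replicate 2 or 3 of Day 12 +Wnt, replicate 2 of Day 15 +Fgf or replicate 1 or 3 of Day 15 +Wnt (-1.27 to -1.12, adjusted p 0.0525 to 0.078). The Meg3 term was lost without replicate 1 of Day 12 +Fgf, replicate 2 or 3 of Day 12 +Wnt, replicate 1 of Day 15 +Fgf or replicate 1 or 3 of Day 15 +Wnt (-0.57 to -0.40, adjusted p 0.0502 to 0.0951). The Nnat term, just past the threshold, was lost on leaving out any library other than Day 12 +Fgf replicate 2, Day 12 +Wnt replicate 1 or Day 15 +Wnt replicate 2 (0.29 to 0.41, adjusted p 0.0553 to 0.139). Single outlying samples were not tested for, each group having 3 libraries.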

How the results depend on the processing

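Of the 78 member changes called in 9 comparisons, 59 kept their call under all 25 alternatives (10 settings and 15 libraries left out in turn) and 0 changed direction. With RNA integrity as a covariate, 6 members were called for Day 12 +Fgf against Day 10 Rx::GFP+ in place of 10, and 2 for the interaction in place of 7. RNA integrity numbers did not overlap between Day 10 Rx::GFP+ and Day 12 +Fgf. Those of Day 15 +Fgf lay below those of Day 12 +Fgf and Day 15 +Wnt. The covariate thus went largely with group, and calls lost with it cannot be assigned to RNA quality or to group. With no filter on low values the interaction called 4, and leaving out a library gave 3 to 8, the lowest without Day 15 +Wnt replicate 3 and 4 without Day 12 +Wnt replicate 3 or Day 15 +Wnt replicate 1. The cause was not tested. The other counts of called members stayed within 1.5 times. The share of all tested genes called under each alternative is not given here. These counts therefore do not show whether the members lost calls more often than other genes. A change of sign occurred only in changes that were not called. Dlk1 in Day 12 +Wnt against Day 10 Rx::GFP+ was 0.00 under quantile normalization, -0.05 with RNA integrity and -0.13 to 0.26 in the leave-outs, and in Day 15 +Fgf against Day 12 +Fgf -0.03 under quantile normalization, -0.02 in edgeR and -0.15 to 0.75 in the leave-outs. Igf2 in Day 15 +Fgf against Day 15 +Wnt was -0.08 under quantile normalization, 0.00 in edgeR and -0.05 to 0.18 in the leave-outs. Ndn ranged from -0.01 to 0.06 in the leave-outs of Day 12 +Wnt against Day 10 Rx::GFP+ and from -0.03 to 0.00 in those of Day 15 +Fgf against Day 15 +Wnt. The interaction of H19 was 0.16 with RNA integrity. Quantile normalization moved the median change of all genes to -0.10 in Day 15 +Wnt against Day 12 +Wnt and to -0.11 against Day 10.

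The replicate numbers did not pair the libraries. Deviations of same-numbered libraries correlated at -0.25 to 0.24 (median -0.01, 7 of 30 pairs over 0.1), and 5 of 15 libraries correlated best with their own number. With the replicate block the 9 counts stayed within 1.5 times, the Nnat interaction had an adjusted p of 0.0507 and Ndn at Day 12 between the stimulations 0.0531. Grb10 in the +Wnt groups rests on 39 to 83 reads per library, which limits its precision there.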
